A study of Torulaspora delbrueckii with 17 samples.

Results

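Kos3 and Orc1 were both precipitated from 1 strain of the budding yeast Torulaspora delbrueckii, LRY3212, which carries the orc1bah allele, and the regions found for Kos3 were set against those found for Orc1. The members were all enriched regions in the 4 peak lists of that strain. There were 614 of them among the 5717 regions in the 15 lists of the series. The Kos3 lists held 33 and 50 regions and the Orc1 lists held 259 and 272. The question put to them was which places bound by Kos3 in the orc1bah strain also hold Orc1, over what width and at what distance.

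Chromatin immunoprecipitation followed by sequencing (ChIP-seq) recovers the DNA cross-linked to a tagged protein. Kos3 was recovered through a V5 tag and Orc1 through a MYC tag, from cells grown in rich glucose medium (YPD). In the orc1bah strain and in the wild-type strain used beside it, LRY3211, both proteins carry their tags, so the tags are common to all the main groups. The orc1bah allele itself is not described further in the labels. LRY3211, in which ORC1 is unmutated, gave 2 Kos3 lists of 105 and 119 regions and 1 Orc1 list of 308 regions. Orc1 lists from 4 further sources were consulted: the kos3 mutant LRY3205 (1 library), the sir2 mutant LRY3206 (2 libraries), the orc1P179A strains LRY3215 and LRY3216 (1 library each, with 1 Kos3 library each), and LRY3204, a strain with unmutated ORC1 and no label of a Kos3 tag (1 library). The series calls the libraries of a pair technical replicates, so for a pair from 1 strain the spread is a technical one and each strain stands for itself. The orc1P179A libraries come from different strains, LRY3215 and LRY3216, so the spread between them is not only technical. The first and second library of a pair are called list 1 and list 2 below.

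Orc1 is the largest subunit of the origin recognition complex, which marks the sites where DNA replication starts. Its amino end holds a bromo-adjacent homology (BAH) domain, a fold that binds nucleosomes and, in Saccharomyces cerevisiae, the silencing protein Sir1. Kos3 belongs to the same protein family as Sir1, whose members act at silenced chromatin, such as the silent mating-type cassette HML and the regions next to telomeres.

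Of the places where Kos3 was found in the orc1bah strain, most also held Orc1. Regions found in both Kos3 lists and linked by overlap formed 24 places, of which 21 overlapped an Orc1 region by at least 1 bp in both Orc1 lists. That is 87.5%, with a Wilson 95% interval of 69.0 to 95.7% that covers counting error only. No place had Orc1 in a single list, and 3 places had none. Orc1 regions covered 2.26% and 2.47% of the genome in list 1 and list 2.

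Counted list by list, the share was lower. Of the 33 regions of Kos3 list 1, 27 overlapped Orc1 list 1 (81.8%, Wilson 95% interval 65.6 to 91.4%) and 25 overlapped Orc1 list 2 (75.8%, 59.0 to 87.2%). Of the 50 regions of Kos3 list 2, 33 overlapped Orc1 list 1 (66.0%, 52.2 to 77.6%) and 30 overlapped Orc1 list 2 (60.0%, 46.2 to 72.4%). Kos3 list 2 alone, with Orc1 required in both lists, gave 60.0% in place of the 87.5% of the places. Orc1 in both Orc1 lists was found under 66.3% of the Kos3 regions in orc1bah and 28.1% in orc1P179A, whose lists come from LRY3215 and LRY3216. In the wild type LRY3211, which had 1 Orc1 list, the share was 89.7%. Over the 1758 Kos3 regions of all these strains it was 37.8%, but 1451 of them were from orc1P179A. The orc1P179A Kos3 lists held 725 and 726 regions, with 13.1% and 15.0% of summits outside genes, against 75.8% and 76.0% in orc1bah. The part of this in the shares was not tested.

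Seen from the Orc1 side, few regions carried Kos3. Overlap with a Kos3 region was found for 10.0% and 7.72% of the regions of Orc1 list 1 and list 2 when set against Kos3 list 1, and for 10.8% and 9.19% when set against Kos3 list 2. Of the 531 Orc1 regions in both lists together, 39 overlapped Kos3 in both Kos3 lists, a share of 7.34%. Of the 232 Orc1 places, formed in the same way from the 2 Orc1 lists, 19 had Kos3 in both lists, 7 in 1 list and 206 in none.

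The Kos3 regions were fewer, narrower and closer to chromosome ends than the Orc1 regions. Their median width was 366 and 322 bp in the Kos3 lists, against 743 and 810 bp in the Orc1 lists, a ratio of means of 0.443. Kos3 regions covered 15.4 and 22.2 kb, against 208.3 and 227.8 kb for Orc1, a ratio of 0.0862. The number of regions had a ratio of 0.156. In none of these measures did the Kos3 and Orc1 lists overlap. With 2 libraries against 2, the exact two-sided permutation test gave p = 0.333 for each of them, which is the smallest p it can give, so no difference could pass a threshold. Of the 531 Orc1 regions, 13% had their midpoint within 20 kb of a chromosome end. For Kos3 this share was 57.6% and 48.0% in the 2 lists, against 13.1% and 12.9% in the Orc1 lists, a difference of 39.8 percentage points between the means (exact permutation test, p = 0.333).

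**Figure D1:**
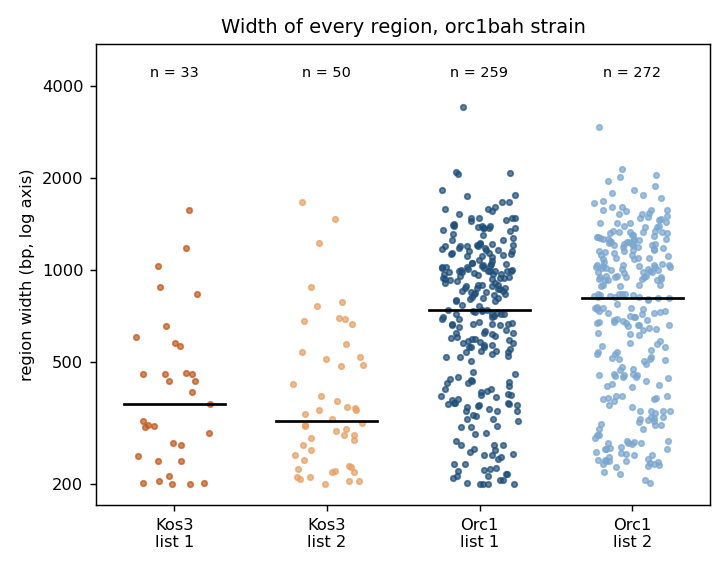
Width of every enriched region in the 4 lists of the orc1bah strain, 1 point per region on a log axis, with the median of each list as a line. Both Kos3 medians (366 and 322 bp) lie below both Orc1 medians (743 and 810 bp), while the widths of single regions overlap between the proteins.

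The libraries of a pair shared most, but not all, of their regions. For Kos3, 25 of 33 regions of list 1 (75.8%) overlapped list 2 and 28 of 50 regions of list 2 (56.0%) overlapped list 1. For Orc1 the corresponding numbers were 240 of 259 (92.7%) and 238 of 272 (87.5%). The highest fold enrichment, the authors' ratio of precipitate over background for each region, was 4.69 and 5.53 in the Kos3 lists. The lists were called separately. Folds rank regions of a list or, averaged over the 2 lists of a pair, places, and no Kos3 fold is compared with an Orc1 fold. The number of reads behind each list is unknown, and its part in the number and width of regions was not tested.

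The place with the highest mean Kos3 fold lay beside HML. It spanned positions 1275842 to 1276507 of chromosome 3. Its strongest Kos3 summit lay 804 bp from HMLALPHA1, a gene of the silent mating-type cassette, and its midpoint 15.7 kb from the chromosome end. The Kos3 fold there was 4.69 in list 1 and 5.53 in list 2, over 434 and 666 bp. Orc1 was present in both lists over 594 and 680 bp, with folds of 2.29 and 3.36 that ranked 207 of 259 and 188 of 272. The Kos3 and Orc1 summits were 77 to 156 bp apart, and the Orc1 summits of the 2 lists fell on opposite sides of the Kos3 summits. A smaller Kos3 region lay inside HMLALPHA1 itself in list 2 alone, with Orc1 under it in list 1 alone.

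At 3 strong places the summits of both proteins fell almost on the same base. In the gene FRE4, named after the ferric reductase family of S. cerevisiae, on chromosome 4 (1192141 to 1192930), the Kos3 folds were 3.94 and 4.50 and the 4 distances between Kos3 and Orc1 summits were 0 to 5 bp. On chromosome 5 (51162 to 52833, between TDEL0E00260 and TDEL0E00270) the Kos3 folds were 4.64 and 5.14 and the distances 6 to 9 bp. At the right end of chromosome 4 (1216913 to 1218141, beyond TDEL0D06680) the Kos3 folds were 4.35 and 5.01 and the distances 4 to 16 bp. The regions there were also of like width: 1186 and 1229 bp for Kos3 and 1254 and 1266 bp for Orc1, with both Kos3 regions lying wholly inside both Orc1 regions.

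The remaining strong places with Orc1 showed looser agreement of position. On chromosome 5 (74819 to 75498), over the valine tRNA gene TDEL0Etrna12V and within 5 kb of SIR1, Kos3 had folds of 3.38 and 5.37 while the Orc1 summit lay 519 to 700 bp to its left. Orc1 was strong there, with folds of 14.1 and 15.0 that ranked 21 and 38 in their lists. Near the left end of chromosome 2 (5016 to 5996, between TDEL0B00100 and TDEL0B00110) the Kos3 folds were 2.79 and 4.61 and the summits 26 to 125 bp apart. On chromosome 7 (35033 to 35797, at the valine tRNA gene TDEL0Gtrna5V) the folds were 2.67 and 3.69 and the distances 5 to 89 bp. These 7 places and 1 without Orc1, described further down, made up the 8 with the highest mean Kos3 fold.

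**Figure D2:**
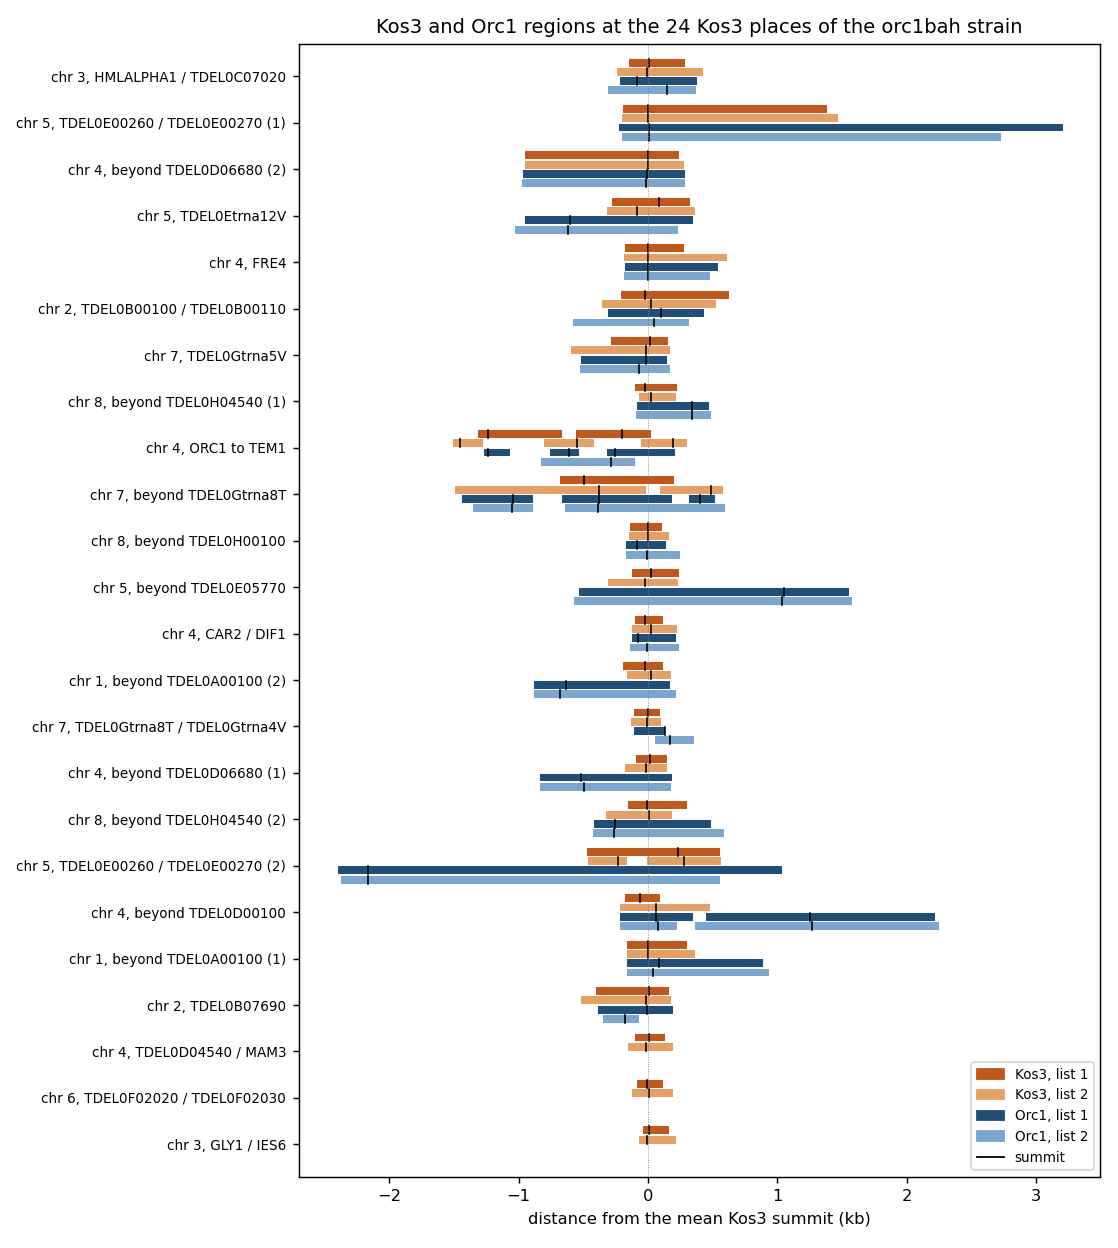
Extent of the Kos3 and Orc1 regions at the 24 Kos3 places, drawn in kb from the mean of the strongest Kos3 summits of the 2 lists, with black ticks for summits and names of the genes inside or on either side. Places run by mean Kos3 fold from the top, and the 3 without Orc1 are at the bottom. Where Orc1 is present, a median of 97.9% of the Kos3 bar lies inside the Orc1 bars, which at several places reach further on 1 side.

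At the 21 shared places Kos3 was mostly the narrower of the 2. The median Kos3 width was 488 bp, against 818.5 bp for Orc1. The ratio of Kos3 to Orc1 width had a median of 0.765 and ran from 0.213 to 1.47. Kos3 was narrower at 18 places and wider at 3, and at 12 places both Kos3 widths lay below both Orc1 widths. Averaged over the 4 pairs of lists, a median of 97.9% of the Kos3 region fell inside Orc1, with a lowest value of 48.5%, and at 6 places every Kos3 region lay wholly inside an Orc1 region of each list. The thinnest shared pair was at the left end of chromosome 7, between TDEL0Gtrna8T and TDEL0Gtrna4V, where 16.4% of the Kos3 region of list 1 and 19.2% of that of list 2 lay inside Orc1 list 2. The nearest miss was a Kos3 region of list 2 at the same end, 0.037 kb from an Orc1 region. With Kos3 list 2 alone, the median width ratio was 0.527.

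The summits of the 2 proteins were close at some places and far apart at others. The distance between a place's strongest Kos3 summit and the nearest Orc1 summit, averaged over the 4 pairs of lists, had a median of 116.5 bp. It was at most 50 bp at 5 places, at most 200 bp at 12 and over 500 bp at 5. For scale, the strongest summits of the 2 Kos3 lists were a median of 36 bp apart. The summits of the strongest overlapping Orc1 regions of the 2 Orc1 lists were 24 bp apart, although these were not always the Orc1 summits nearest to Kos3. Without Orc1 list 1, the median distance between the proteins was 170 bp.

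The 5 largest distances belonged to Orc1 regions that reached well past the Kos3 region. At the right end of chromosome 5 (1084815 to 1085361, beyond TDEL0E05770) Kos3 covered 366 and 539 bp with folds of 2.16 and 2.301, inside Orc1 regions of 2092 and 2152 bp with folds of 15.9 and 21.2 that ranked 9 and 6 in their lists. The Orc1 summits lay 1014 to 1073 bp from those of Kos3, on the side of the chromosome end. On chromosome 5 the places at 51162 to 52833 and 53059 to 54095 both fell under 1 Orc1 region of 3433 and 2936 bp, whose summit belonged to the first of them, so that the second had the largest distance of all, 2166 bp. The places 1 to 519 and 686 to 1058 of chromosome 1 likewise shared 1 Orc1 region. The other 2 lay at the right end of chromosome 4 (1216384 to 1216710) and at TDEL0Etrna12V.

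**Figure D3:**
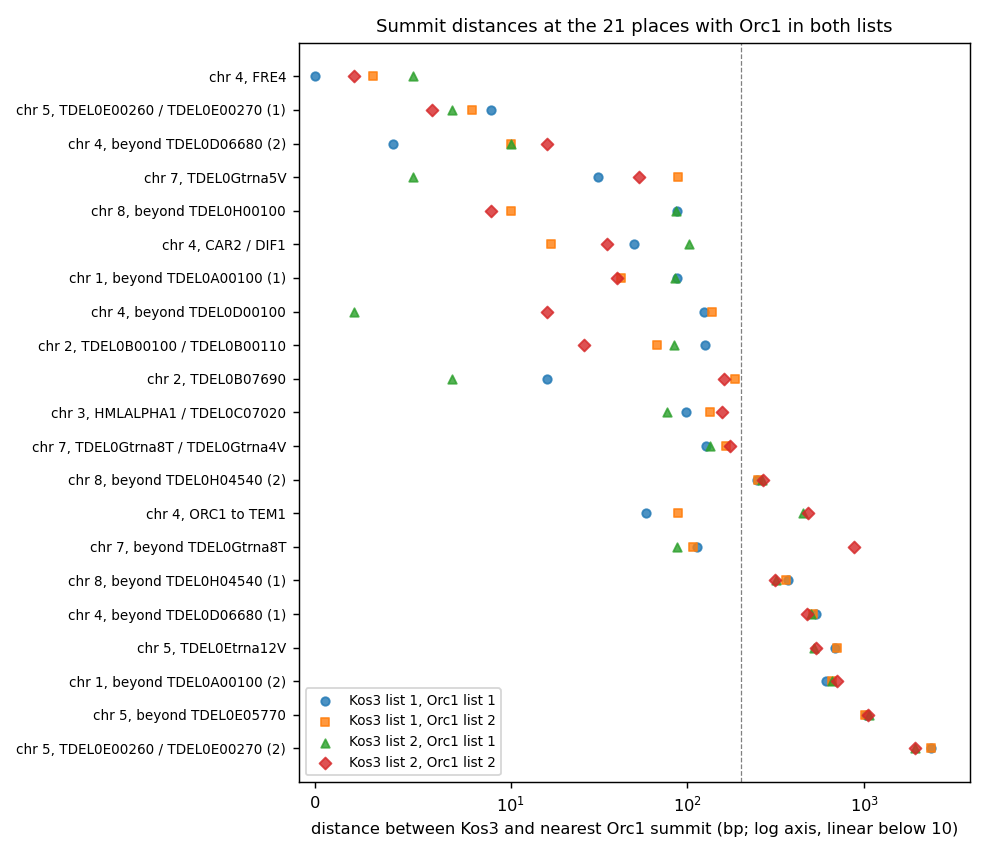
Distance in bp between the strongest Kos3 summit of a place and the nearest Orc1 summit at the 21 places with Orc1 in both lists, for each pair of a Kos3 and an Orc1 list, on a log axis that is linear below 10 bp. The dashed line marks 200 bp. Places are ordered by the mean of their 4 distances, which ran from 2.5 bp in FRE4 to 2166 bp at the second place between TDEL0E00260 and TDEL0E00270.

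Of the places at chromosome ends, each held Orc1. All 14 places within 20 kb of an end had Orc1 in both lists, as did all 5 places between 20 and 100 kb from an end. Of the 5 places farther than 100 kb from any end, 2 had Orc1 in both lists. Of the 16 chromosome ends, 10 had a place and 13 a Kos3 region in at least 1 list, while 14 had Orc1 within 20 kb in both lists. Kos3 covered 2.57% and 3.73% of the 320 kb within 20 kb of the ends, against 7.69% and 8.31% for Orc1.

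The 2 internal places with Orc1 had low Orc1 folds, which ranked 200 to 212 in their lists. These places had mean Kos3 folds of 2.72 and 2.23, above and below the median of 2.33 at the shared places. One ran along ORC1, the gene of the tagged and mutated protein, into the neighbouring TEM1 (chromosome 4, 166413 to 168219). It consisted of 2 regions in Kos3 list 1 and 3 in Kos3 list 2, with highest folds of 2.56 and 2.88, over 3 regions in Orc1 list 1 and 1 in Orc1 list 2. It was absent from both wild-type Kos3 lists and from the LRY3211 Orc1 list, and present in the Orc1 lists of LRY3204 and the kos3 mutant. The input came from a strain other than LRY3212, and the part of that in the folds at this gene was not tested. The other lay between CAR2, named after the ornithine transaminase gene of S. cerevisiae, and DIF1 (chromosome 4, 186480 to 186829). Kos3 folds were 2.13 and 2.32 there, and the summits 17 to 102 bp apart.

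The 3 places without Orc1 were all internal, narrow and between genes. The first lay between GLY1, which encodes threonine aldolase in S. cerevisiae, and IES6 (chromosome 3, 437358 to 437646), with Kos3 folds of 2.23 and 2.72 over 201 and 289 bp. It was in no other list of the series. The second lay between TDEL0D04540 and MAM3 (chromosome 4, 832963 to 833311), with folds of 2.45 and 4.36 over 237 and 349 bp. The last lay between TDEL0F02020 and TDEL0F02030 (chromosome 6, 369704 to 370020), with folds of 2.54 and 3.73 over 204 and 317 bp. Their mean folds, 2.47 to 3.40, were within the 1.73 to 5.11 of the 21 places with Orc1. The last 2 were in both wild-type Kos3 lists, and none of the 3 was in an Orc1 list of any strain.

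Kos3 regions found in 1 list only numbered 8 in list 1 and 22 in list 2. Of these 30 regions, 10 had Orc1 in both lists, 4 in 1 list and 16 in none. Among the 16, 5 were within 20 kb of an end. The 11 internal ones had folds of 1.60 to 2.53 and widths of 200 to 355 bp, and 9 had their summit outside genes. The 10 of the 16 with the highest folds, ranked over both lists together, had values of 2.18 to 2.53. Of these, 6 were internal regions of list 2. They lay between PYK2, named after a pyruvate kinase, and PUT4, between YAP1802 and PFK1, named after a phosphofructokinase subunit, between TDH2, named after a glyceraldehyde-3-phosphate dehydrogenase, and MET3, between TDEL0D01260 and SPO14, between ENO2, named after an enolase, and SPC97, and between PHM7 and TDEL0D05050. The other 4 were near the ends of chromosomes 7 and 8. At 3 of the 11, in the FRE4 to TDEL0D06610 interval, wild type had Kos3 and Orc1.

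The remaining loci looked up whatever their values gave a short list. Of the genes for silencing and origin proteins, HML, ORC1 and SIR1 had Kos3 in both orc1bah lists within 5 kb. ORC2, ORC3, ORC4, ORC5, ORC6, SIR2 and SIR4 had 0 Kos3 regions in either list, although ORC4, ORC5 and SIR4 had Orc1 in both. The ribosomal DNA array and SLA2, a gene beside the mating-type locus in many yeasts, had 0 regions of either protein in orc1bah, against 3 and 5 Kos3 regions at the ribosomal DNA and 2 and 4 at SLA2 in wild type. Outside genes, 16 of the 21 shared places had their strongest Kos3 summit, while 75.3% of the Orc1 regions had their summit there. A tRNA gene within 1 kb of the summit was found at 3 of the 21, against 21.1% of the Orc1 regions.

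Orc1 regions that carried Kos3 had lower folds by median than those that did not. Orc1 regions with Kos3 in both lists had a median fold of 2.70 in Orc1 list 1 (20 regions) and 3.02 in list 2 (19 regions), against 6.92 (225 regions) and 7.72 (245 regions) for Orc1 regions with no Kos3. The ranges overlapped widely. Of the 20 Orc1 regions with the highest fold in each list, 1 carried Kos3 in both lists (5.0%) and 2 carried it in any (10.0%). Among the top 50 of each list the shares were 4.0% in both and 6.0% in any, and among the top 100, 2.0% and 4.0%. Over all regions of Orc1 list 1 and list 2 they were 7.72% and 6.99% in both, and 13.1% and 9.93% in any. When the 33 regions with the highest fold were taken from every list, 1 of the 18 Kos3 places so formed held Orc1 in both lists. The strongest Orc1 place, between MSH3 and CDC39 on chromosome 1, had folds of 26.7 and 32.4 and no Kos3.

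**Figure D4:**
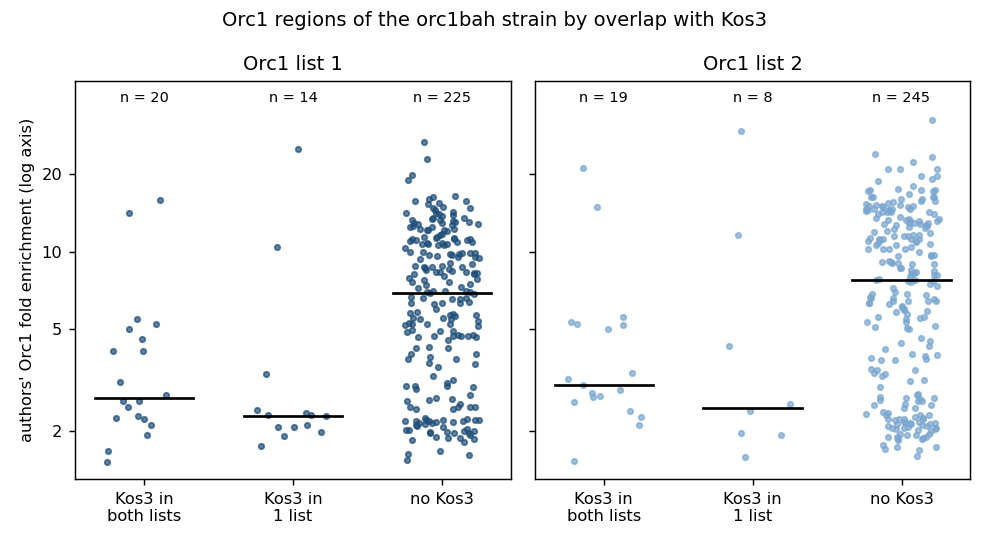
The authors' fold enrichment of each Orc1 region of the orc1bah strain on a log axis, by whether it overlapped Kos3 in both Kos3 lists, in 1 list or in none, with medians as lines and 1 panel per Orc1 list. Regions with Kos3 in both lists centre on folds of 2.70 and 3.02, and those without on 6.92 and 7.72.

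Position went with this difference. Of the Orc1 regions with Kos3 in both lists, 65.0% and 68.4% lay within 20 kb of an end in Orc1 list 1 and list 2, against 4.89% and 6.53% of those without Kos3. Of the 29 Orc1 places within 20 kb of an end, 13 had Kos3 in both lists (44.8%), against 6 of 203 elsewhere (2.96%). The part of position in the difference in fold was not tested.

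The regions of both proteins were mostly narrower at the shared places in orc1bah than in wild type. Of the 21 places, 20 were in both wild-type Kos3 lists and in the LRY3211 Orc1 list, the exception being the ORC1 locus. At these 20, the median Kos3 width was 519 bp in orc1bah and 2516 bp in wild type, with a median ratio of 0.222, and Kos3 was narrower in orc1bah at all 20. The median Orc1 width was 889.5 bp in orc1bah and 6012 bp in LRY3211, with a median ratio of 0.148, and Orc1 was narrower at 19, the exception being the CAR2 to DIF1 place. In LRY3204 the median Orc1 width at the same 20 places was 3218 bp, and Orc1 was again narrower in orc1bah at 19. Several places fell under the same wild-type region, so that the 20 corresponded to 19 and 16 Kos3 regions and 15 Orc1 regions in LRY3211. Each place was set against the whole wild-type region, so a region split in orc1bah gives lower ratios by itself. At the right end of chromosome 4, Kos3 widths of 282.5 and 1208 bp at neighbouring places were each set against 2739 bp. The order of the widths, with Kos3 below Orc1, was the same in both strains by median.

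**Figure D5:**
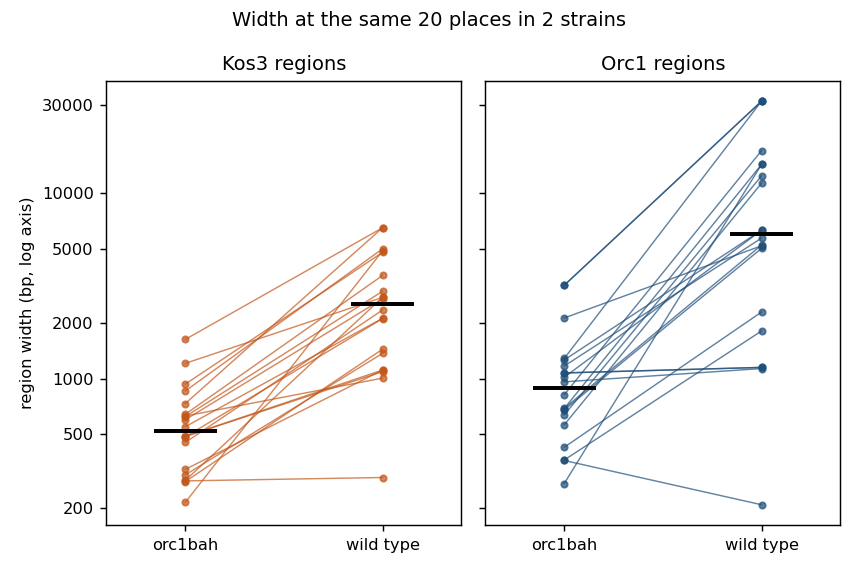
Width in bp, on a log axis, of the Kos3 regions (left) and the Orc1 regions (right) at the 20 places found in both strains, with orc1bah left of wild type. Each line joins the same place, Kos3 points are means over 2 lists, the wild-type Orc1 points come from the list of LRY3211 and bars are medians: 519 and 2516 bp for Kos3, 889.5 and 6012 bp for Orc1.

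Whether fewer Kos3 regions overlapped Orc1 in orc1bah than in wild type depended on the wild-type Orc1 list. The mean over the 4 pairs of orc1bah lists was 70.9%, while in LRY3211, which has both tags, 92 of 105 Kos3 regions of list 1 (87.6%) and 109 of 119 of list 2 (91.6%) overlapped Orc1. The difference between the means was -18.7 percentage points, and all 4 orc1bah shares lay below both of these wild-type shares. Against the Orc1 list of LRY3204, the wild-type shares were 61.9% and 53.8%, and the difference was 13.1 percentage points, of the opposite sign. Orc1 regions covered 7.69% and 8.31% of the 320 kb at chromosome ends in orc1bah, against 45.2% in LRY3211 and 19.3% in LRY3204. These differences have no p-value, since each wild-type strain had 1 Orc1 list. When summits within 200 bp were required in place of an overlap, the difference from LRY3211 also turned, to 19.4 percentage points.

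Wild-type Kos3 places that were still found in orc1bah mostly held Orc1 there, and those that were not mostly did not. Of the 62 places of the 2 wild-type Kos3 lists, 37.1% overlapped orc1bah Orc1 in both lists. Among the 19 still in both orc1bah Kos3 lists, 17 did (89.5%, Wilson 95% interval 68.6 to 97.1%). Among the 38 found in neither, 3 did (7.89%, 2.72 to 20.8%) and 31 overlapped Orc1 in neither list. In wild type, 17 of the 19 overlapped Orc1 in the LRY3211 list and 17 in the LRY3204 list, against all 38 and 24 of the 38 not found. The remaining places were stronger and wider in wild type, with a median Kos3 fold of 7.97 and a median span of 2430 bp, against 2.41 and 567.5 bp for those not found. Their part in the difference was not tested.

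Orc1 was at the shared places in other strains too. All 21 overlapped Orc1 in the kos3 mutant, whose single library was called on another input, as did 94.8% of the 232 orc1bah Orc1 places. In sir2, 14 of the 21 had Orc1 in both libraries and 5 in neither, while 91.4% of the 232 had it in both. The 5 were the place beside HML and the ORC1, CAR2 to DIF1, TDEL0B07690 and TDEL0Gtrna8T to TDEL0Gtrna4V places. Other Orc1 regions lay within 5 kb of HML in both sir2 lists. In orc1P179A, 19 of the 21 had Orc1 in both libraries, as did 94% of the 232. The 21 and the 232 share members, and the differences between their shares were not tested.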

How the data were processed

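Each deposited list held the regions called by the authors for 1 immunoprecipitation library. Bowtie2 2.3.4.1 and MACS2 2.2.7.1 are named in the submitters' processing notes. The threshold, the read filters and the genome build used with them are not given in the sources used here. For each region the authors deposited a position, a summit offset, a fold enrichment (a linear ratio), its p-value and q-value as −log10, and a score, which was 10 times the −log10 of q within 1 unit. The lowest deposited −log10 q-value in the 4 lists was 1.31. Per the file names, 1 input served all 4 lists, under another number in the peak names, which also hold the word subsample. Both inputs of the series are labelled with another strain, JRY10156. The part of differences between that strain and LRY3212 in the folds was not tested. Lists hold no read counts, so depth is unknown. The 2 input libraries had no list used here.

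Starts were written 1-based, and genes came from a table of assembly ASM24337v1. Its chromosomes were matched to the lists by order of their RefSeq entries. Strong Orc1 summits lay outside genes at 67.4 to 92.9% per chromosome with that match, against at most 60.0% with any other chromosome. The largest region or gene end stood for a chromosome end, so distances to it are lower bounds. Places linked overlapping Kos3 regions found in both lists, and Orc1 was counted at an overlap of at least 1 bp. A width at a place is the mean over its regions and lists. Lists were compared by exact two-sided permutation tests over the 4 libraries (scipy 1.17.1), and shares have Wilson 95% intervals. No test was made over regions. Counting was tested on simulated regions. Every place is accounted for. The 8 with the highest mean fold, the places without Orc1 and up to 10 single-list regions without Orc1 by fold are named, with a set of loci looked up whatever their values. The members and these lists were chosen with earlier results of these data known. No sequence is shown.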

Additional observations from a re-analysis of the deposited data

Results flagged for a closer look

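In 2 measures the Kos3 and Orc1 lists of the orc1bah strain differed the opposite way from those of the orc1P179A strains, in every library. These differences between the mutants were not tested. The number of regions of Kos3 over Orc1 was 0.156 in orc1bah and 1.21 in orc1P179A. The share of regions within 20 kb of a chromosome end, Kos3 over Orc1, was 4.06 in orc1bah and 0.718 in orc1P179A. The orc1P179A Kos3 lists held 725 and 726 regions, of which 29 and 30 had a −log10 q of at least 10. In orc1bah this held for 12 of 33 and 15 of 50 Kos3 regions.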

How the results depend on the processing

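Of 106 comparisons of a result with an alternative, 88 kept the value within its spread or on its side, 16 moved and 2 changed sign. Requiring summits within 200 bp gave 56.5% of places with Orc1 (13 of 23), 45.3% per list, 6.89% of Orc1 regions with Kos3, a distance of 57 bp, and a change of sign to 19.4 percentage points against wild type. The wild-type Orc1 list of LRY3204, chosen after seeing the data, changed that sign too, to 13.1. A −log10 q of at least 5 gave 81.0% of places with Orc1 (17 of 21), and one of at least 10 gave 72.7% (8 of 11). Per list, these cutoffs gave 72.1% and 74.6%, against 70.9% without them. A −log10 q of at least 10 also gave 4.68% of Orc1 regions with Kos3 and a distance of 54 bp. An overlap of 50% of the shorter region gave 75.5 bp, and joining regions within 1 kb gave 380 bp. The 33 strongest regions of every list gave 5.56% of places (1 of 18), 5.3% per list, 4.55% of Orc1 regions, 1040 bp and a width ratio of 0.213. Apart from joining and the LRY3204 list, these settings keep fewer regions or stricter pairs. The 200 bp rule selects on summit distance itself. Why the values moved was not tested for any setting. With each library left out in turn, the share of places ran from 60.0 to 87.5%, the distance from 100 to 170 bp, the width ratio from 0.527 to 0.812, and the difference from wild type from -26.6 to -10.8 percentage points. The last includes leaving out each wild-type Kos3 library, also chosen later. The ratios of median width, number and covered length and the share near ends kept their direction under every alternative run but not their size: at a −log10 q of at least 10 the number had a ratio of 0.0665 and the covered length 0.0434, and with equal list sizes the covered length had 0.332 and the width 0.255. Pairing lists by replicate number as a block kept every result in direction and within its spread, with a width ratio of 0.445 for whole lists and a distance of 127 bp. The labels do not say whether the libraries were paired by number. The deviations of log2 fold over 21 places had r = 0.0141, but 1 correlation over places that partly share Orc1 regions cannot decide this. Depth is unknown, and the lists hold only regions above the authors' threshold, so a place without a region is not shown to be unbound.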
